A study of Rattus norvegicus with 18 samples.

Results

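The microRNAs (miRNAs) miR-338, miR-219a, miR-204 and miR-211 were described in dorsal root ganglia (DRG), which hold the cell bodies of sensory neurons and the glia around them. Every entry of the small RNA count table that carried any of these 4 names, with any copy or arm suffix, was taken, which gave 9 of 753 listed miRNAs. Small RNA was sequenced from C6-8 DRG of 18 adult Lister hooded rats, with the ganglia of a rat pooled into a library. Naive rats (n = 6) were unoperated. Rats of the bPYX+GFP group (n = 6) had bilateral pyramidotomy, a cut of the corticospinal tracts in the medulla, and an AAV1 vector encoding EGFP under the CMV promoter was injected into forelimb muscles on 1 side. Rats of the bPYX+NT3 group (n = 6) had the same surgery and an AAV1-CMV vector encoding human prepro-neurotrophin-3 (NT3), a growth factor for proprioceptive neurons. DRG of the operated rats were from the injected side and were removed 10 weeks after injury. Surgery and vector injection were not separated in the design, so their parts in a difference from naive rats cannot be told apart.

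A miRNA is cut from a hairpin precursor that can release a mature RNA from its 5′ arm, marked 5p, and from its 3′ arm, marked 3p. The mature RNA guides a silencing complex to messenger RNAs, mainly through its seed at bases 2 to 8. miR-219 and miR-338 are known for promoting the maturation of oligodendrocytes, the myelinating glia of the brain and spinal cord, and miR-338 is also found in Schwann cells. miR-204 and miR-211 share a seed and are known from cells of neural crest and eye origin, such as melanocytes and retinal pigment epithelium. DRG neurons, satellite glia and Schwann cells all come from the neural crest. The libraries were made from whole ganglia, so fewer cells of a type and less RNA per cell cannot be told apart.

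The mature sequences of the 9 members are given first, because the 3 members without any count all lie opposite another mature miRNA. They are RefSeq sequences of assembly GRCr8, matched by name, and capitals mark the seed. The counts themselves were made on the older build Rnor_5.0. miR-204-5p and miR-211-5p shared the seed UCCCUUU and were the only 2 of 688 listed miRNAs with a known sequence that had it. They differed by 1 substitution over 22 bases, A17U, with miR-204-5p first and positions counted from its 5′ end.
miR-204-5p: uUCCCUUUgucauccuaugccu
miR-211-5p: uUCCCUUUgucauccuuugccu

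The opposite arms of the same hairpins had seeds of their own, which no other listed miRNA with a known sequence shared.
miR-204-3p: gCUGGGAAggcaaagggacguu
miR-211-3p: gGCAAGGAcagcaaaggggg

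The 5′ arm of miR-219a is the same in the hairpins Mir219a1 and Mir219-2, so a read of it fits both places. The 3′ arms of these hairpins differed by 7 substitutions over 22 bases.
miR-219a-5p: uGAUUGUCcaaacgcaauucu
miR-219a-1-3p: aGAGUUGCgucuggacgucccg
miR-219a-2-3p: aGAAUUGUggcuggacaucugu

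The arms of miR-338, and the miRNAs listed on the opposite strand of miR-338 and of miR-219a-2-3p, are given together because they cover the same bases of the genome.
miR-338-5p: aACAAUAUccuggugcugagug
miR-3065-3p: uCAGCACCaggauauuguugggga
miR-338-3p: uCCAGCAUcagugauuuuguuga
miR-3065-5p: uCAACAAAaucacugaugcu
miR-219b: aGAUGUCCagccacaauucucg

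The hairpin of miR-338 is transcribed from the strand opposite that of Mir3065, and both lie within Aatk, a kinase gene. In both hairpins below, written 5′ to 3′ on their own strand, capitals mark the mature arms.
Mir338: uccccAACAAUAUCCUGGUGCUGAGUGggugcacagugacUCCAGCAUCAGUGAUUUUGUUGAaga
Mir3065: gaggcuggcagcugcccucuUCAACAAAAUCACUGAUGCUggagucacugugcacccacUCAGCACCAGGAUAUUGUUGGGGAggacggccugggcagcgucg

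miR-338-3p overlapped miR-3065-5p by 20 bases, miR-338-5p overlapped miR-3065-3p by 19 bases, and miR-219a-2-3p overlapped miR-219b by 20 bases. Mir204 lies within Trpm3 and Mir211 within Trpm1, each on the same strand as its host. These hosts encode related ion channels. No annotated gene surrounded Mir219a1.

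The libraries held 3.88 to 6.92 M miRNA counts, with a mean of 4.70 ± 0.663 M (SD, n = 18). Levels are given as counts per M (CPM) after TMM scaling, a correction for library composition. Together the 9 members took 0.892 ± 0.124% of the miRNA counts of a library (SD, n = 18), with a range from 0.643 to 1.17%. By group this share was 0.924 ± 0.137% for naive, 0.929 ± 0.046% for bPYX+GFP and 0.823 ± 0.151% for bPYX+NT3 rats (SD, n = 6 each). miR-204-5p held 94.1% of these 754554 counts, so the share of the members is in effect its share. Of the 9 members, 4 passed the count filter of more than 10 counts in at least 6 libraries (miR-204-5p, miR-204-3p, miR-211-5p and miR-219a-1-3p) and 5 did not. The libraries of a group differed from each other by more than sampling noise.

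The name that these miRNAs carry as a glial set could not be checked from its best-known glial members. rno-miR-338-3p, rno-miR-338-5p and rno-miR-219a-2-3p had 0 counts in all 18 libraries. At 3 counts as the limit, this allows up to 0.434 to 0.773 assigned reads per M miRNA counts in a single library, here without TMM scaling, and sets no limit on the RNA itself where reads could not be assigned. miR-3065-5p and miR-219b also had 0 counts, and miR-3065-3p had 1 count. rno-miR-219a-5p had 59 counts in all, with 18 for naive, 16 for bPYX+GFP and 25 for bPYX+NT3 rats and 0 to 7 in a library. It had counts in 17 of 18 libraries, but too few to pass the filter. Without the filter its log2 fold change was -0.28 ± 0.59 in bPYX+GFP against naive rats (SE, adjusted p = 0.877 by edgeR). It was 0.78 ± 0.55 in bPYX+NT3 against bPYX+GFP (SE, adjusted p = 0.662 by edgeR). In bPYX+NT3 against naive rats it was 0.53 ± 0.42 (SE, adjusted p = 0.623 by edgeR). These values rest on few counts. miR-211-3p had 1 count, in naive replicate 1. The limit covers counting error only, since PCR makes copies and these libraries had no stated molecular identifiers.

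The 3 members at 0 all lie opposite another listed mature miRNA, so the same position was looked up for every listed miRNA with a RefSeq sequence. Of 94 miRNAs that overlapped a mature miRNA on the opposite strand, 82 (87.2%) had 0 counts in all 18 libraries and 6 (6.38%) passed the filter. Of 567 miRNAs with neither an opposite partner nor a second hairpin, 73 (12.9%) were at 0 and 331 (58.4%) passed. The 94 hold both partners of pairs such as miR-338-3p and miR-3065-5p, and whether the classes differ in expression was not tested. Zero counts were thus the common state of miRNAs placed like miR-338, and not particular to it. Other arms of the same hairpins that had no opposite partner were often counted. Of 27 miRNAs at 0 with an unopposed other arm, 24 had counts for it, as few as 3 for miR-208a-3p. For 15 of them an unopposed arm passed the filter. miR-126a-5p, for example, had 0 counts beside 2052261 for miR-126a-3p, which is abundant in endothelium. miR-191a-3p had 0 beside 592122 for miR-191a-5p, and miR-183-5p, a sensory neuron miRNA, had 0 beside 2829 for miR-183-3p. The strand setting of the counting step is not given in the sources used here, and its part in the 0 counts of miR-338 was not tested. The level of miR-338 in these ganglia is therefore not known from these counts.

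**Figure D1:**
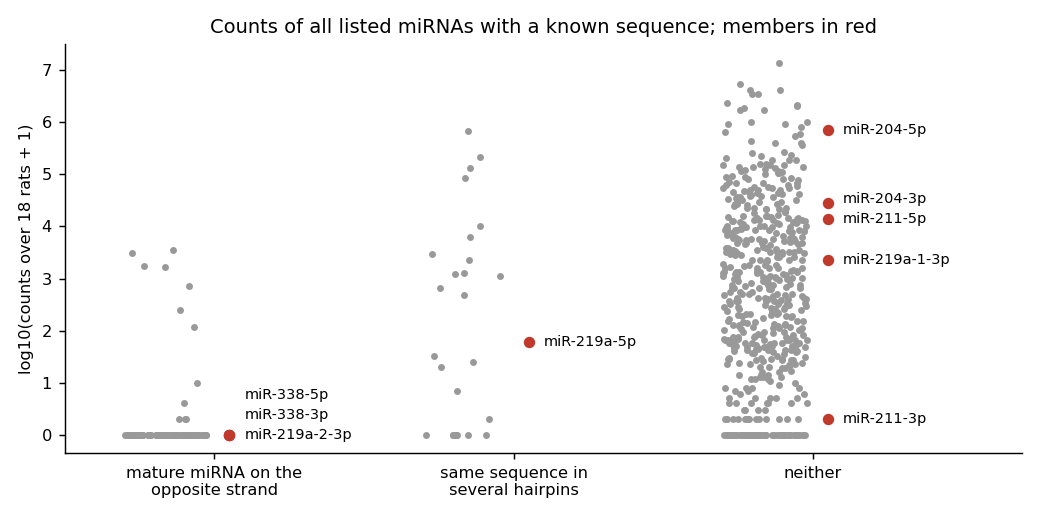
Counts over 18 rats, as log10 of the total plus 1, for 688 listed miRNAs, grouped by whether a mature miRNA lies on the opposite strand, the sequence occurs in several hairpins, or neither. Grey points are single miRNAs and red points are the members. Of the opposite-strand miRNAs 87.2% sit at 0, among them miR-338-3p, miR-338-5p and miR-219a-2-3p, and miR-204-5p stands near the top of the last group.

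miR-219a-5p belongs to the 27 miRNAs whose sequence occurs in several hairpins. Of these, 13 (48.1%) passed the filter and 8 (29.6%) were at 0, with a median of 59 counts against 494 in the group with neither property. The highest count in this group was 687605, for the neuronal miR-128-3p, and the part of the second hairpin in the low count of miR-219a-5p was not tested. miR-219a-1-3p had 38.7 counts for each count of miR-219a-5p, from which it is separated only by the loop of the Mir219a1 hairpin. Reads of low alignment quality made up 31.4 ± 1.88% of all reads (SD, n = 18), and how many came from miR-219a-5p is not given. The ratio between these arms is therefore not a measure of which arm the cells retained.

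rno-miR-204-5p, to give its full rat name, was the most abundant member and ranked 20 of 753 by mean CPM. It ranged from 6920 to 11923 CPM for naive (median 8754), from 7353 to 9608 for bPYX+GFP (median 8958) and from 5315 to 10564 for bPYX+NT3 rats (median 7710). Naive replicate 3 was the highest of all and bPYX+NT3 replicates 3 and 5 were the lowest, and all 3 groups overlapped. The group means were 8935 ± 1638, 8781 ± 771 and 7637 ± 1880 CPM (SD, n = 6 each).

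rno-miR-204-3p, from the other arm of the hairpin, ranked 109. It ranged from 262 to 395 CPM for naive (median 299), from 333 to 425 for bPYX+GFP (median 372) and from 198 to 388 for bPYX+NT3 rats (median 321). All 6 bPYX+GFP rats lay above the naive mean, but only bPYX+GFP replicate 2 was above the highest naive rat. The group means were 319 ± 54.2, 372 ± 33.6 and 305 ± 76.6 CPM (SD, n = 6 each).

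rno-miR-211-5p, which shares the seed of miR-204-5p, ranked 134. It ranged from 147 to 232 CPM for naive (median 165), from 151 to 189 for bPYX+GFP (median 172) and from 113 to 208 for bPYX+NT3 rats (median 158). The order of the rats was much like that for miR-204-5p, with naive replicate 3 at the top, bPYX+NT3 replicates 3 and 5 at the bottom, and overlap of all groups. The group means were 172 ± 30.9, 171 ± 15.1 and 156 ± 32.8 CPM (SD, n = 6 each).

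miR-219a-1-3p, the 3′ arm of a miR-219a hairpin, ranked 237. It ranged from 22.2 to 46.8 CPM for naive (median 31.0), from 18.2 to 35.8 for bPYX+GFP (median 24.3) and from 15.7 to 33.2 for bPYX+NT3 rats (median 25.0). Here naive replicate 2, not replicate 3, was the highest, and the groups overlapped again. Naive replicate 1 was the lowest naive rat for this and the other 3 tested members. The group means were 31.5 ± 9.18, 25.7 ± 6.42 and 24.8 ± 5.90 CPM (SD, n = 6 each).

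**Figure D2:**
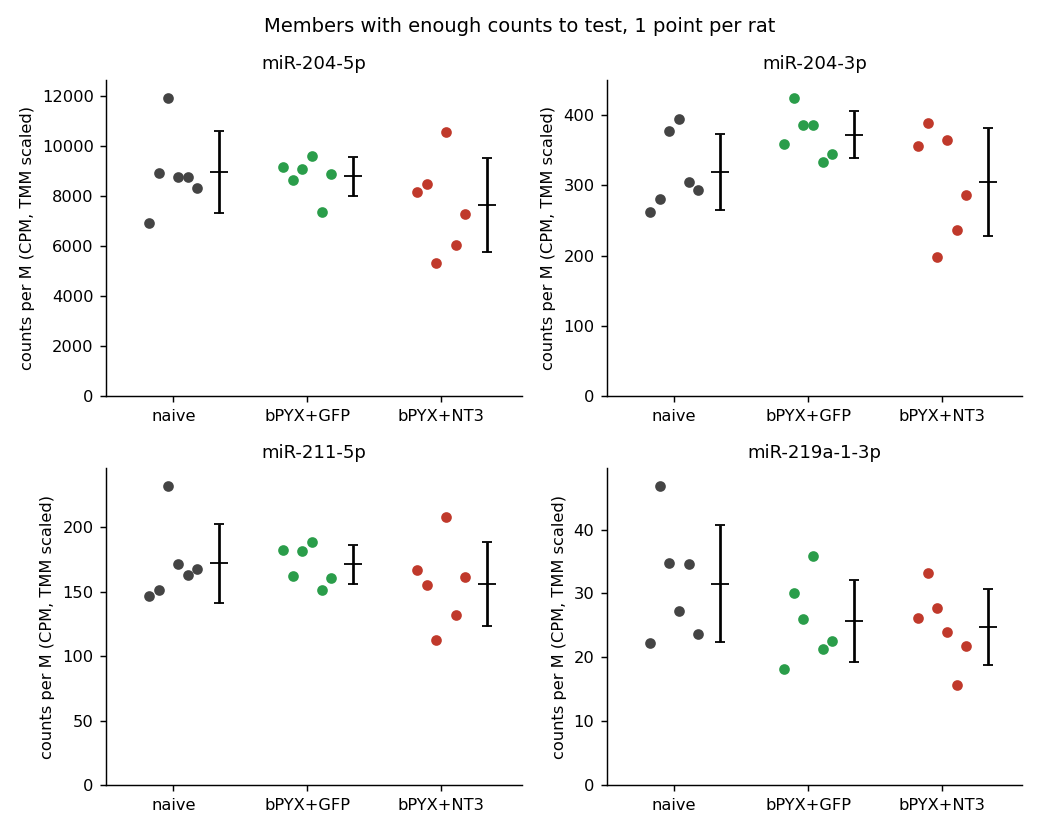
CPM after TMM scaling (vertical axes, from 0) of the 4 tested members for naive, bPYX+GFP and bPYX+NT3 rats. Points are rats, and bars beside them are the mean ± SD of 6 rats. The groups overlap in each panel, and the bPYX+GFP rats lie closest together for miR-204-5p, miR-204-3p and miR-211-5p.

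The coefficient of variation (CV, the SD as a share of the mean) of miR-204-5p was 18.3% for naive, 8.78% for bPYX+GFP and 24.6% for bPYX+NT3 rats. That of miR-204-3p was 17.0, 9.03 and 25.1%, and that of miR-211-5p 17.9, 8.84 and 21.0%. The median CV of all 373 tested miRNAs was 13.9, 12.9 and 16.9% in the same groups, with quartiles of 9.72 and 21.9%, 8.76 and 22.3%, and 11.7 and 23.96%. The CVs of these 3 members lay between the quartiles in naive and bPYX+GFP rats, and those of miR-204-5p and miR-204-3p lay above the upper quartile in bPYX+NT3 rats, which was not tested. miR-219a-1-3p had a CV of 23.8 to 29.1% in every group.

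The first comparison, bPYX+GFP against naive, asked what injury with the control vector changed. No member passed an adjusted p of 0.05 in edgeR, beside 9 of 373 miRNAs tested (2.41%), and none was among the 23 that DESeq2 called. miR-204-3p had a log2 fold change of 0.22 ± 0.10 (SE, 95% interval 0.00046 to 0.45), with an adjusted p of 0.234 by edgeR. Its unadjusted p of 0.0496 made it the only member under 0.05 unadjusted, a limit that 79 of 373 miRNAs (21.2%) passed, 40 of them (10.7%) with a higher value. No member had groups without overlap, beside 15 of all tested (4.02%). Without each library in turn the log2 fold change ranged from 0.17 without naive replicate 1 (unadjusted p 0.113) to 0.28 without naive replicate 4 (unadjusted p 0.0094), and the adjusted p by edgeR from 0.13 to 0.419. The unadjusted p was under 0.05 in 4 of these 12 fits.

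The seed-sharing pair had fitted values near 0. The log2 fold change of miR-204-5p was -0.025 ± 0.11 (SE, 95% interval -0.25 to 0.20, adjusted p = 0.951 by edgeR). That of miR-211-5p was -0.0065 ± 0.11 (SE, 95% interval -0.24 to 0.23, adjusted p = 0.983 by edgeR), and its sign depended on the scaling. miR-219a-1-3p had a log2 fold change of -0.30 ± 0.19 (SE, 95% interval -0.71 to 0.12, adjusted p = 0.406 by edgeR), with 1 of 6 bPYX+GFP rats above the naive mean. Without naive replicate 2 it was -0.15, and without bPYX+GFP replicate 4 it was -0.43, with an unadjusted p of 0.0347 and an adjusted p of 0.208 by edgeR. The fitted difference was below 0 for 3 of 4 members, as for 49.1% of all tested, and the median over the 4 members was -0.016, beside 0.0036 over all tested miRNAs.

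The second comparison, bPYX+NT3 against bPYX+GFP, asked what NT3 changed in injured rats. No member and no other miRNA passed an adjusted p of 0.05 in edgeR (0 of 373, 0%). At an unadjusted p under 0.05 there were 32 of 373 miRNAs (8.58%) by edgeR, none of them a member, and DESeq2 also gave 0 at an adjusted p of 0.05. The fitted difference was below 0 for 4 of 4 tested members, as for 50.1% of all miRNAs tested, and the members' median was -0.16 on the log2 scale beside -0.00042 for all. These members are not 4 separate observations, since the levels of 3 of them moved together over rats.

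For miR-204-3p the log2 fold change with NT3 was -0.28 ± 0.14 (SE, 95% interval -0.59 to 0.03, adjusted p = 0.587 by edgeR), and 3 bPYX+NT3 rats lay below every bPYX+GFP rat. Without each library in turn it ranged from -0.38 without bPYX+NT3 replicate 2 (unadjusted p 0.0104) to -0.21, with an unadjusted p under 0.05 in 5 of 12 fits and adjusted p-values by edgeR or DESeq2 of 0.242 to 0.816 over all settings. For miR-204-5p it was -0.19 ± 0.13 (SE, 95% interval -0.47 to 0.09, adjusted p = 0.668 by edgeR), and for miR-211-5p -0.13 ± 0.12 (SE, 95% interval -0.38 to 0.13, adjusted p = 0.751 by edgeR). bPYX+NT3 replicate 4 was above every bPYX+GFP rat for both of these, while replicates 3 and 5 were below them all. Without replicate 4 the log2 fold changes were -0.34, -0.31 and -0.23, the 3 unadjusted p-values 0.0371, 0.0113 and 0.0319, and the adjusted p-values by edgeR 0.286, 0.224 and 0.262. That of miR-211-5p was -0.076 without replicate 3 and -0.083 without replicate 5. miR-219a-1-3p had a log2 fold change of -0.041 ± 0.19 (SE, 95% interval -0.44 to 0.35, adjusted p = 0.95 by edgeR).

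The third comparison, bPYX+NT3 against naive, asked which differences from unoperated rats were present after NT3. It shares the naive rats with the first comparison and the bPYX+NT3 rats with the second, so its values are not separate evidence. By edgeR no member and no other miRNA passed an adjusted p of 0.05 (0 of 373, 0%), and 51 of 373 (13.7%) had an unadjusted p under 0.05, none of them a member. DESeq2 called 1 miRNA, which was not a member, and 5 of the tested miRNAs (1.34%), again no member, had groups without overlap. The log2 fold change was -0.06 ± 0.16 for miR-204-3p, -0.23 ± 0.15 for miR-204-5p and -0.14 ± 0.14 for miR-211-5p (SE), with adjusted p-values of 0.886, 0.508 and 0.7 by edgeR. Leaving out 1 library moved those of miR-204-5p and miR-211-5p to -0.13 and -0.038 (without naive replicate 3), -0.13 and -0.057 (without bPYX+NT3 replicate 3) or -0.32 and -0.22 (without bPYX+NT3 replicate 4). Without this last library miR-204-5p had an unadjusted p of 0.0267 and an adjusted p of 0.199 by edgeR. The log2 fold change was -0.35 ± 0.20 for miR-219a-1-3p (SE, 95% interval -0.77 to 0.07, adjusted p = 0.394 by edgeR), with 1 of 6 bPYX+NT3 rats above the naive mean. Without each library in turn it ranged from -0.43 to -0.21, with -0.21 without naive replicate 2 and unadjusted p-values of 0.0397 without naive replicate 1 and 0.0484 without bPYX+NT3 replicate 2, and with adjusted p-values by edgeR of 0.312 to 0.646. The fitted difference was below 0 for 4 of 4 members, as for 52.3% of all tested, with medians of -0.18 and -0.011.

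**Figure D3:**
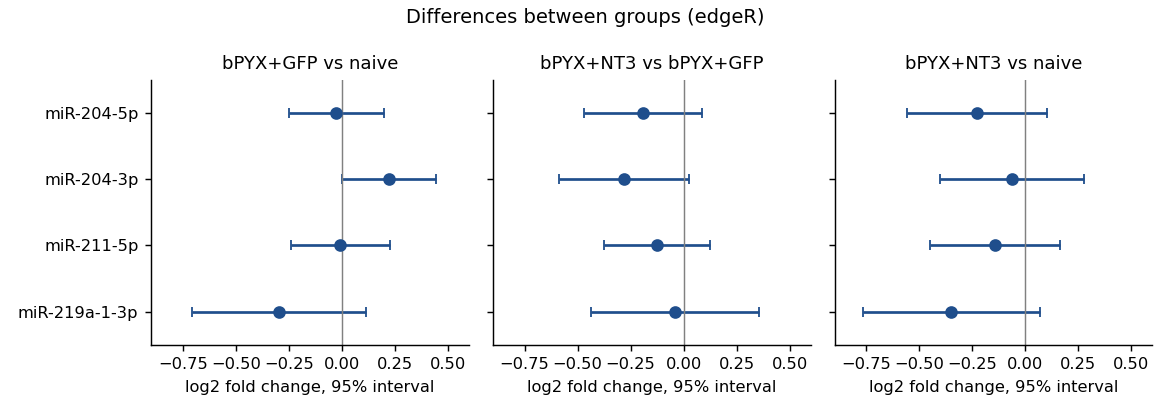
Log2 fold change of the 4 tested members (rows) in the 3 comparisons (panels), with 95% intervals from edgeR fits of 12 rats each. The interval lies just above 0 for miR-204-3p in bPYX+GFP against naive, from 0.00046 to 0.45, and includes 0 in all other rows.

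Ratios between members of the same library need no scaling between libraries and were compared by exact permutation over every split of 12 rats into 6 and 6, with 9 tests adjusted together. The counts of miR-204-3p were 3.60 ± 0.506% of those of miR-204-5p for naive, 4.25 ± 0.404% for bPYX+GFP and 4.00 ± 0.411% for bPYX+NT3 rats (SD, n = 6 each). The range was 3.14 to 4.51% for naive, 3.89 to 4.92% for bPYX+GFP and 3.45 to 4.57% for bPYX+NT3 rats. All 6 bPYX+GFP rats were above the naive mean and 2 were above every naive rat, and naive replicate 4 was the highest of its group. The log2 ratio was higher by 0.25 ± 0.096 (SE) in bPYX+GFP than in naive rats, with p = 0.0325 by two-sided exact permutation and an adjusted p of 0.292. Without naive replicate 4 the difference was 0.31, with p = 0.00433 by exact permutation and an adjusted p of 0.039. Of the 12 fits that each left out 1 library only that 1 gave a call, and the other 11 did not. Over these 12 fits the difference ranged from 0.20 to 0.31, with p under 0.05 by exact permutation in 5. The adjusted p by permutation was 0.039 to 0.557 over all settings. The log2 ratio differed by -0.091 ± 0.081 (SE) between bPYX+NT3 and bPYX+GFP and by 0.16 ± 0.099 (SE) between bPYX+NT3 and naive rats, with adjusted p-values of 0.452 and 0.362 by exact permutation. The difference between bPYX+NT3 and bPYX+GFP was -0.048 without bPYX+GFP replicate 2 and -0.049 without bPYX+NT3 replicate 4. Over all libraries there were 25.4 counts of miR-204-5p for each count of miR-204-3p.

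The seed-sharing pair kept a narrow ratio. The counts of miR-211-5p were 1.93 ± 0.145% of those of miR-204-5p for naive, 1.95 ± 0.091% for bPYX+GFP and 2.06 ± 0.146% for bPYX+NT3 rats (SD, n = 6 each). The adjusted p-values by exact permutation were 0.76 for bPYX+GFP against naive and 0.362 for both comparisons of bPYX+NT3. In all, 50.7 counts of miR-204-5p were found for each count of miR-211-5p, so most RNA counted with this seed was miR-204-5p. The ratio of miR-219a-1-3p to miR-204-5p gave adjusted p-values of 0.362, 0.557 and 0.76 by exact permutation for bPYX+GFP against naive, bPYX+NT3 against bPYX+GFP and bPYX+NT3 against naive.

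The levels of miR-204-5p and miR-211-5p moved together over rats, with Pearson's r of 0.935 and Spearman's rho of 0.814 for log2 CPM over 18 libraries. The permutation p of r was 1e-05, the smallest that 100000 resamples can give, and the adjusted p-values over 6 pairs were 6e-05 for r and 0.00072 for rho. Without bPYX+NT3 replicates 3 and 5, the libraries farthest from the median, r was 0.874. Within groups r was 0.900 for naive, 0.865 for bPYX+GFP and 0.963 for bPYX+NT3 rats. The hairpins of this pair lie in different host genes. A near-identical sequence could let reads with errors cross between them, and that was not tested.

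miR-204-3p and miR-204-5p, from 1 hairpin, had r = 0.792 (adjusted permutation p = 0.00033) and rho = 0.614 (adjusted permutation p = 0.0162). This fell to r = 0.532 without the same 2 libraries, and was 0.691, 0.481 and 0.924 withfor naive, bPYX+GFP and bPYX+NT3 rats. miR-204-3p and miR-211-5p had r = 0.751 and 0.484 without these libraries, so both relations rest in part on them. miR-219a-1-3p had r of 0.239, 0.426 and 0.202 with miR-204-3p, miR-204-5p and miR-211-5p, with adjusted permutation p-values of 0.406, 0.116 and 0.422. The points share library, depth and scaling.

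**Figure D4:**
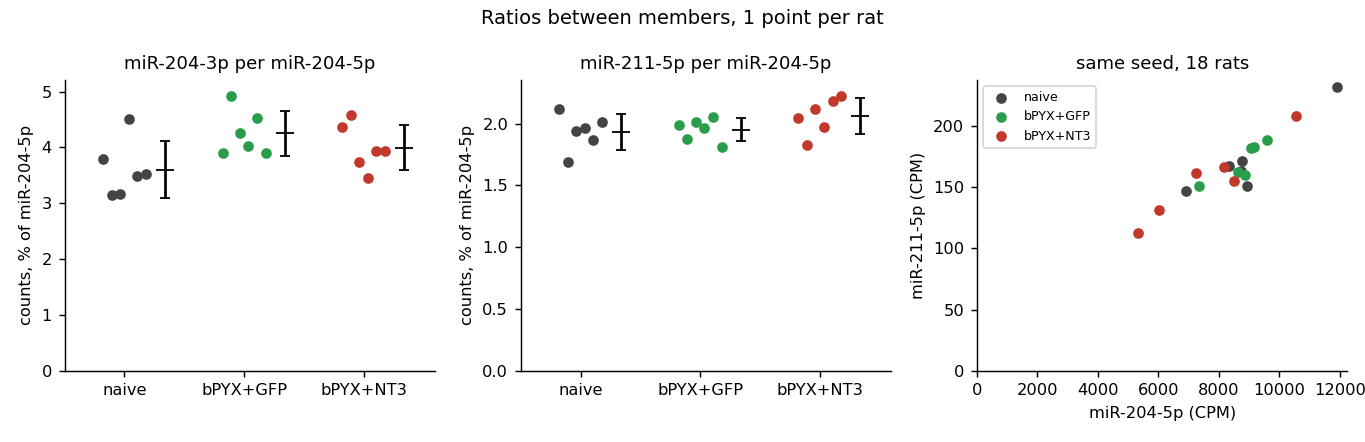
Counts of miR-204-3p and of miR-211-5p as a percentage of miR-204-5p counts (left and middle, bars mean ± SD of 6 rats), and CPM of miR-211-5p against miR-204-5p (right), with 1 point per rat. miR-204-3p is highest relative to miR-204-5p in bPYX+GFP rats (4.25%) with overlap of the groups, and the seed-sharing pair follows a line with r = 0.935 on the log2 scale.

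Of the other 372 tested miRNAs, those most like each member over the 18 libraries were named as a description. For miR-204-5p they were miR-211-5p, miR-493-3p (r = 0.906) and miR-139-5p (r = 0.894), and miR-139-5p was also second for miR-211-5p (r = 0.856), followed by miR-195-3p (r = 0.822). For miR-204-3p they were miR-22-5p (r = 0.909), miR-132-5p (r = 0.860) and miR-24-2-5p (r = 0.846), while miR-204-5p itself was only number 6. For miR-219a-1-3p they were miR-21-5p (r = 0.793), miR-212-5p (r = 0.721) and miR-125b-5p (r = 0.713). The last of these had 1669 counts and lies opposite another mature miRNA, and whether this position affected its counts was not tested. The median r with all tested miRNAs was 0.046 to 0.077. Without the 2 libraries farthest from the median, r was 0.777 for miR-493-3p and 0.750 for miR-139-5p with miR-204-5p, and 0.675 for miR-139-5p and 0.688 for miR-195-3p with miR-211-5p. It was 0.79, 0.65 and 0.63 for the miRNAs most like miR-204-3p and 0.72, 0.56 and 0.46 for those most like miR-219a-1-3p, in the order named.

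Other miRNAs linked in general knowledge to Schwann cells or oligodendrocytes were listed beside the members (miR-138-5p, miR-29a-3p, miR-34a-5p, miR-140-5p, miR-23a-3p, miR-23b-3p, miR-32-5p and miR-145-5p). Of these 8, 7 were tested, and miR-29a-3p was at 0 and lies opposite another mature miRNA. None passed an adjusted p of 0.05 in edgeR in any of the 3 comparisons. At an unadjusted p under 0.05 there was 1 of 7 in each comparison, beside 21.2, 8.58 and 13.7% of all tested miRNAs. In bPYX+GFP against naive rats it was miR-145-5p, which is also abundant in smooth muscle, with a lower value (log2 fold change -0.50 ± 0.14 SE, adjusted p = 0.0742 by edgeR). The same miRNA was the 1 with a higher value in bPYX+NT3 than in bPYX+GFP rats (0.40 ± 0.16 SE, adjusted p = 0.442 by edgeR). miR-138-5p, which in Schwann cells is known to act on differentiation genes, was the 1 higher in bPYX+NT3 than in naive rats (0.29 ± 0.12 SE, adjusted p = 0.349 by edgeR). The median log2 fold changes of the list were -0.021, 0.10 and 0.07 in the 3 comparisons, beside 0.0036, -0.00042 and -0.011 for all tested.

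Markers of other cells were also summed, as neuron, sensory neuron, skeletal muscle, red blood cell, endothelium, fibroblast, smooth muscle, myeloid and epithelium lists. Of the 26 markers of these 9 lists 20 were tested, and in edgeR none passed an adjusted p of 0.05 in any comparison. At an unadjusted p under 0.05 there were 3 of 20 in bPYX+GFP against naive (21.2% of all tested), with the sensory neuron miR-182 higher (log2 fold change 0.20) and the fibroblast miR-199a-5p (-0.21) and smooth muscle miR-145-5p lower. The other tested markers of the same lists had values nearer 0 in this comparison, at 0.065 for miR-96-5p, -0.0084 for miR-199a-3p, -0.044 for miR-214-3p and 0.0096 for miR-143-3p. There were 2 of 20 in bPYX+NT3 against bPYX+GFP (8.58% of all tested), miR-145-5p and the epithelial miR-205 (0.49), both higher, while miR-143-3p was at -0.0017 and the miR-200 markers of epithelium ranged from -0.065 to 0.31. There were 2 of 20 in bPYX+NT3 against naive (13.7% of all tested), miR-182 (0.19) and miR-205 (0.45), both higher, while miR-96-5p was at -0.039 and the miR-200 markers ranged from 0.10 to 0.59. The ranges of their summed CPM overlapped between all groups. The sensory neuron markers summed to 23641 to 33101 CPM, with miR-183-5p at 0. Of the 3 skeletal muscle markers, miR-1-3p and miR-133a-3p were at 0 and lie opposite other mature miRNAs, so this sum rests on miR-206-3p alone. miR-1b and miR-133b-3p, which were not on the list, had 809479 and 3590 counts over 18 libraries.

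Reads that the counting step could give to no single miRNA were compared between groups, since reads of miR-338 could be among them. These ambiguous reads made up 7.96 ± 0.416% of miRNA plus ambiguous reads for naive, 8.75 ± 0.259% for bPYX+GFP and 8.90 ± 0.141% for bPYX+NT3 rats (SD, n = 6 each). The range was 7.29 to 8.56% for naive, 8.33 to 8.97% for bPYX+GFP and 8.73 to 9.06% for bPYX+NT3 rats. All 6 bPYX+NT3 rats and 5 of 6 bPYX+GFP rats were above every naive rat. The difference from naive was 0.783 ± 0.200 percentage points (SE) in bPYX+GFP, with p = 0.00433 by two-sided exact permutation, and 0.934 ± 0.179 in bPYX+NT3, with p = 0.00216 by exact permutation, the smallest the design allows. Both had an adjusted p of 0.039 over 18 exact permutation tests of read shares. Taken as a share of all reads, the adjusted p by exact permutation was again 0.039 for bPYX+GFP but 0.0877 for bPYX+NT3, so the latter call depended on the denominator. The difference between bPYX+NT3 and bPYX+GFP was 0.152 percentage points, with an adjusted p of 0.714 by exact permutation. The share was looked at after the data had been seen. Which miRNAs these reads came from is not given, so nothing about miR-338 can be read from it.

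**Figure D5:**
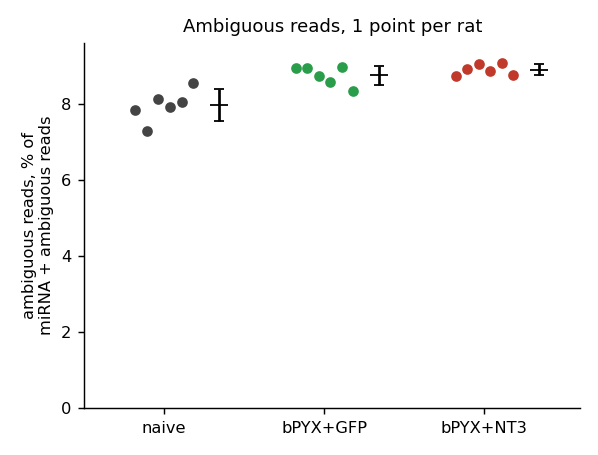
Ambiguous reads as a percentage of miRNA plus ambiguous reads (vertical axis, from 0) in 18 rats, with the mean ± SD of 6 rats beside each group. Naive rats lie between 7.29 and 8.56%, and all 6 bPYX+NT3 rats lie above them, between 8.73 and 9.06%.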

How the data were processed

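Small RNA libraries of 18 rats were prepared by the authors with a NEBNext kit, with no molecular identifiers stated, and reads were trimmed, aligned with Bowtie2 to Rnor_5.0 and counted with HTSeq. The deposited values are raw counts per mature miRNA. Tool versions except bcl2fastq 1.8.4, the strand setting and the miRNA annotation release are not given in the sources used here. Of all reads, 34.9% were counted for a miRNA. The 5 totals that hold the rest entered neither library sizes nor tests of miRNA levels, and were used only for shares of reads.

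Groups followed the labels, with 6 rats each, and p-values measure the spread between rats. miRNAs with more than 10 counts in at least 6 of 18 libraries were tested (373) with edgeR 4.0.16 in R 4.3.3, as quasi-likelihood fits with TMM on the 12 libraries of each comparison and Benjamini-Hochberg adjustment over 373. The SE came from the F statistic. All 18 libraries were kept, including the 1 that the study excluded as an outlier. Log2 ratios used a pseudocount of 0.5 and exact permutation (SciPy 1.17.1).

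The members and lists were chosen with earlier results of these data known. Named miRNAs were every member, opposite-strand partners, the 3 most correlated miRNAs per tested member and a list linked to myelination, beside marker lists for 9 other cell types. The miRNAs miR-126a, miR-191a, miR-183-3p and miR-128-3p in the overlap account were chosen after their values were seen. Sequences and host genes were from RefSeq GRCr8, which gave sequences for 688 of 753 names, and no coordinates are given because the builds differ. Alternatives were other scaling, filters, tools (DESeq2 1.42.0) and fits, the replicate number as a block and each library left out.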

Additional observations from a re-analysis of the deposited data

Results flagged for a closer look

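The level of miR-211-5p in naive replicate 3 was 232 CPM, far from the next naive rat at 172 CPM, a gap of 0.705 of the range of the group. The same rat was the highest for miR-204-5p. Chance gives such a library in about 1 in 20 groups, and 27 groups were checked, so 1.35 were to be met by chance and 1 was found.

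The share of ambiguous reads, which no test of miRNA levels uses, was 8.75% for bPYX+GFP and 8.90% for bPYX+NT3 rats, above the 7.96% in naive rats. It remained higher without any single library, by 0.648 to 0.902 percentage points for bPYX+GFP and by 0.799 to 1.05 for bPYX+NT3 rats, with exact permutation p-values of at most 0.00866. As a share of all reads it was 3.35% for bPYX+GFP and 3.39% in bPYX+NT3 against 3.03% in naive rats, with adjusted p-values of 0.039 and 0.0877 by exact permutation.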

How the results depend on the processing

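No member passed an adjusted p of 0.05 by edgeR or DESeq2 under any setting run, and the low counts of miR-219a-5p and the 0 counts of the opposite-strand members limit what can be compared. The log2 fold change of miR-211-5p in bPYX+GFP against naive turned to 0.0076 with median-of-ratios scaling, 0.019 with library size only, 0.0076 with DESeq2 and 0.0051 with the replicate block. In this comparison members with an unadjusted p under 0.05 went from 1 to 0 with the likelihood ratio test and with all 3 groups in 1 fit, and DESeq2 called 23 miRNAs in place of 9. In bPYX+NT3 against bPYX+GFP no filter gave 54 miRNAs and 1 member with an unadjusted p under 0.05, and the replicate block gave 1 member. In bPYX+NT3 against naive the likelihood ratio test, DESeq2 and the fit of all 3 groups each called 1 miRNA. The causes were not tested.

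Leaving out each library in turn, bPYX+GFP against naive had 3 to 20 called miRNAs (3 without bPYX+GFP replicate 1, 4 without bPYX+GFP replicate 5 or naive replicate 3, 20 without naive replicate 2), 0 to 1 members with an unadjusted p under 0.05, and log2 fold changes of -0.089 to 0.075 for miR-204-5p and -0.048 to 0.097 for miR-211-5p. bPYX+NT3 against bPYX+GFP had 24 to 54 miRNAs and 0 to 3 members with an unadjusted p under 0.05 (54 and 3 without bPYX+NT3 replicate 4), and -0.16 to 0.063 for miR-219a-1-3p. bPYX+NT3 against naive had 0 to 4 called miRNAs (4 without bPYX+NT3 replicate 4), 33 to 68 miRNAs (33 without bPYX+NT3 replicate 3) and 0 to 1 members with an unadjusted p under 0.05, and -0.13 to 0.037 for miR-204-3p. The log2 ratio of miR-211-5p to miR-204-5p was -0.021 to 0.044 in bPYX+GFP against naive, that of miR-219a-1-3p to miR-204-5p -0.23 to 0.028 in bPYX+NT3 against naive, and that of miR-204-3p to miR-204-5p 0.20 to 0.31 in bPYX+GFP against naive. For miR-204-3p in bPYX+GFP against naive the adjusted p ranged from 0.13 to 0.419 by edgeR or DESeq2.

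The labels give replicate numbers but do not state that same-numbered rats were paired, and the values below do not settle it. Same-numbered deviations correlated at -0.38 to 0.37, and 2 of 6 rats correlated best with their own number in each comparison. With the replicate block, 7, 0 and 0 miRNAs were called in the 3 comparisons, against 9, 0 and 0. In bPYX+NT3 against bPYX+GFP the block moved the SE from 0.144 to 0.112 for miR-204-3p and from 0.131 to 0.101 for miR-204-5p. The unadjusted p-values by edgeR went from 0.0693 to 0.0189 and from 0.165 to 0.0515, with adjusted p-values of 0.321 and 0.468. In bPYX+NT3 against naive the SE rose instead, from 0.160 to 0.166 and from 0.155 to 0.168.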
